A study of Mus musculus with 5 samples.

Results

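The comparison described here sets mouse kidneys 7 days after release of a ureteric obstruction (experimental day 14, the reversed library) against kidneys on day 2 of obstruction (the day 2 library). Its members were the cells of those 2 droplet libraries with at least 200 detected genes and at most 20% of their unique molecular identifiers (UMIs) from mitochondrially encoded genes. This left 3587 of 6434 deposited cells, out of 16876 cells in the 4 droplet libraries of the series: 1515 of 2739 at day 2 and 2072 of 3695 after reversal. Kept cells were split into epithelial cells (at least 1 Epcam UMI and no Ptprc UMI), endothelial cells (at least 2 Egfl7 UMIs and no Ptprc UMI) and leukocytes (at least 1 Ptprc UMI). Unilateral ureteric obstruction (UUO) blocks the outflow of 1 kidney, and in the reversible form the block is later removed. All libraries came from kidneys of C57/BL6 mice aged 8 weeks, with no further allele or agent given in the labels, digested in the cold and sorted by flow cytometry for live cells. Cells of 3 mice went into each library, and a time point has 1 library, so no difference here has a replicate check, no test was run, and intervals (95%, exact) cover counting error only. Duration of obstruction, reversal and library cannot be told apart.

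Obstruction raises pressure in the tubules, and the stressed tubule epithelium is known to secrete osteopontin and lipocalin 2 and to recruit monocytes, which become macrophages in the interstitium. After release, the kidney clears debris and restores the transporters of the tubule, and macrophages are known to pass from an inflammatory to a reparative state. The day 2 library was taken during obstruction and the reversed library 7 days after release. The labels give these times and not the state of the tissue.

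The kept cells held 13375629 UMIs at day 2 and 14338320 after reversal, with medians of 7932 and 5219 UMIs per cell. Too many mitochondrial UMIs removed 1164 and 1578 cells, and too few genes removed 60 and 45. Among kept cells, 7 cell barcodes occurred in both libraries. Levels are given as CPM, the UMIs of a gene summed over a group of cells per 1000000 UMIs of that group. Differences are log2 ratios of CPM plus 1, reversed over day 2. A gene was counted as higher or lower when it had at least 30 summed UMIs, at least 50 CPM in the higher library and a ratio of at least 2-fold. Where sham (648 kept cells) or day 7 of obstruction (4182 kept cells) is mentioned, each is also 1 library. The mitochondrial limit removed 4892 of 5938 deposited sham cells, and kept sham cells had a median of 2731.5 UMIs. The sham gates held 92 epithelial, 176 endothelial and 75 leukocyte cells, so sham levels rest on few, shallow cells. In pooled cells, fewer cells of a type and less RNA per cell cannot be told apart.

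The reversed library held a larger share of endothelial cells and, by a margin that depended on the mitochondrial limit, a smaller share of epithelial cells. Epithelial cells were 357 of 1515 at day 2 (23.6%, 21.4 to 25.8) and 341 of 2072 after reversal (16.5%, 14.9 to 18.1). Endothelial cells were 151 (9.97%, 8.50 to 11.6) and 338 (16.3%, 14.7 to 17.98). Leukocytes were 696 (45.9%, 43.4 to 48.5) and 1001 (48.3%, 46.1 to 50.5), with overlapping intervals. Because a gate asks for a marker UMI and leukocytes were deeper at day 2 (median 9227.5 against 5718 UMIs), gates were also decided after thinning every cell to 1000 UMIs, which left out no cell. Thinned shares were 10.6% and 7.53% for epithelial cells, 3.83% and 7.00% for endothelial cells, and 14.6% (12.8 to 16.5) and 21.5% (19.7 to 23.3) for leukocytes. The leukocyte intervals therefore overlapped at full depth and not at equal depth. With at most 10% mitochondrial UMIs the leukocyte share was the lower one after reversal, 54.2% against 58.3% at day 2, and the epithelial share was 14.1% at day 2 and 12.7% after reversal.

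**Figure D1:**
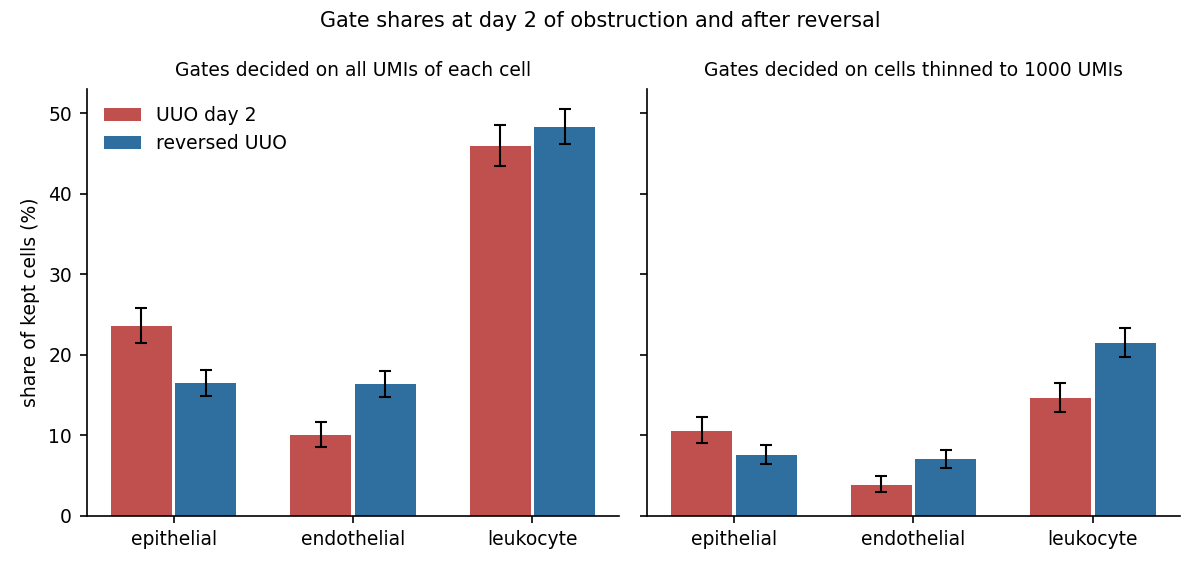
Share of kept cells in each gate (percent of 1515 and 2072 cells) at day 2 of obstruction and after reversal, with exact 95% Clopper-Pearson intervals, at full depth and after thinning to 1000 UMIs. The epithelial share is lower and the endothelial share higher after reversal in both panels, and the leukocyte intervals separate only in the thinned one.

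Marker genes split the gates further, each cell going to the class whose markers held most of its UMIs (at least 2). Some genes compared within a class below are themselves its markers, among them Slc34a1, Lrp2, Slc12a1, Umod, Aqp2, Esm1, Cd3g, Gzma, Ncr1 and Klrb1c. Their levels within the class depend on how its cells were chosen, and do not separate class mix from level per cell. Among endothelial cells, those with most UMIs in peritubular capillary markers were 61 of 151 (40.4%, 32.5 to 48.7) at day 2 and 221 of 338 (65.4%, 60.0 to 70.4) after reversal. Arterial-like cells were 40 (26.5%) and 27 (7.99%). Among leukocytes, T or NK-like cells were 110 of 696 (15.8%, 13.2 to 18.7) and 252 of 1001 (25.2%, 22.5 to 28.0), and mononuclear phagocyte-like cells 536 (77.0%) and 695 (69.4%). In the epithelial gate, loop of Henle-like cells were 154 and 128, intercalated-like cells 90 and 60, and principal-like cells 46 and 31. The Epcam gate held few proximal tubule cells: 181 day 2 and 220 reversed cells in no gate carried most UMIs in proximal markers, against 27 and 66 inside the gate. The 66 had none of these markers among their 10 leading genes and are not named here. Cells in no gate with fibroblast or mural markers numbered 19 at day 2 and 95 after reversal.

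The epithelial cells of the reversed library had lower transcript levels of the injury genes Spp1, Clu, Lcn2 and Havcr1, and higher levels of Egf and of the injury genes Vcam1, Anxa1 and Krt19. The median cell of the gate had 10.6% mitochondrial UMIs at day 2 and 7.83% after reversal, and the 13 mitochondrially encoded genes summed to 106279 and 85039 CPM. Their part in the values of this gate was not tested. Of 3374 genes above the minimum, 6.55% were at least 2-fold higher and 1.39% at least 2-fold lower after reversal, with a median log2 ratio of 0.10. Of 22 tubule injury genes, 18 were above the minimum. Among these, 4 were lower (Spp1, Havcr1, Lcn2, Clu) and 3 higher (Vcam1, Anxa1, Krt19), with a median of -0.22.

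Spp1, which encodes osteopontin, was at 2748 CPM in sham, 57551 at day 2, 31345 at day 7 and 14518 in the reversed library (log2 ratio -1.99). The reversed level thus lay between those of day 2 and sham. Clu, a secreted chaperone, was at 217 CPM in sham, 7862 at day 2, 4896 at day 7 and 3062 after reversal (-1.36, -1.39 to -1.33). Lcn2, a protein that binds bacterial iron carriers and is used as a urinary injury marker, was at 61.6 CPM in sham, 2738 at day 2, 1667 at day 7 and 934 after reversal (-1.55, -1.61 to -1.49). Each of these 3 remained several-fold above its sham level in the reversed library. Clu was below 2-fold with at most 10% mitochondrial UMIs (-0.91). Havcr1, the proximal injury receptor KIM-1, had 0 UMIs in the 92 sham cells of the gate, 55.9 CPM at day 2, 68.4 at day 7 and 17.5 after reversal (-1.62, -2.05 to -1.20). The other 11 members above the minimum were within 2-fold of day 2. The simple-epithelium keratin Krt8 was at 375 and 382 CPM (0.03, -0.08 to 0.14), and Krt18, its partner, at 342 and 307 (-0.15).

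Vcam1, an adhesion molecule also found on tubule cells with incomplete recovery, was at 17.9 CPM in sham, 36.9 at day 2, 119 at day 7 and 109.6 after reversal (1.55, 1.26 to 1.83). Anxa1, an annexin with anti-inflammatory action, was at 33.8, 44.6, 64.8 and 119.5 CPM in the same order (1.40, 1.14 to 1.67). Krt19, a keratin of collecting duct and injured tubule, was at 9.94, 55.1, 83.3 and 119.5 CPM (1.10, 0.86 to 1.35). These 3 stood above both sham and day 2 in the reversed library. Vcam1 was below 2-fold with at most 10% mitochondrial UMIs (0.69) and Anxa1 with equal weight of the tubule classes (0.94), and Krt19 in 4 of 16 alternatives (0.83 with libraries scaled by edgeR's TMM factors in place of their totals). Sox4, a developmental transcription factor, was at 223 CPM at day 2 and 392 after reversal (0.81).

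The same genes were also compared within each tubule class, with no test of a difference between classes. Of the list members above the minimum, 3 of 18 were higher and 4 lower in loop-like cells (9.55% and 2.04% of all genes there), 0 of 15 and 1 in principal-like cells (8.84% and 4.03%), and 0 of 13 and 4 in intercalated-like cells (5.34% and 1.79%). Spp1 was lower after reversal in intercalated-like cells (77426.5 to 7385 CPM, -3.39), in proximal-like cells in no gate (31246 to 4266, -2.87), in principal-like cells (14529 to 4080, -1.83) and in loop-like cells (66509 to 23878, -1.48). Lcn2 was lower in loop-like cells (3820 to 1491, -1.36) and in the ungated proximal-like cells (119 to 9.39, -3.53), and at 399 and 355 CPM in intercalated-like cells (-0.17, -0.40 to 0.06). Havcr1 had 189 UMIs in the 181 proximal-like cells of day 2 and 6 in the 220 of the reversed library (182 to 4.70 CPM, -5.01, -6.10 to -4.00). Vcam1 was higher in those proximal-like cells (6.76 to 79.8 CPM, 3.38, 2.38 to 4.48) and at 59.1 and 50.01 CPM in loop-like cells (-0.24, -0.75 to 0.26). Krt19 and Anxa1 were higher in loop-like cells, from 33.3 to 170.0 CPM (2.32) and from 25.8 to 214 CPM (3.00). In principal-like cells Anxa1 was at 170.4 and 108 CPM (-0.66). Spp1 UMIs were also counted outside the epithelium: T or NK-like cells held 6208 CPM at day 2 and 653 after reversal (-3.25). Its part in the epithelial values was not tested.

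**Figure D2:**
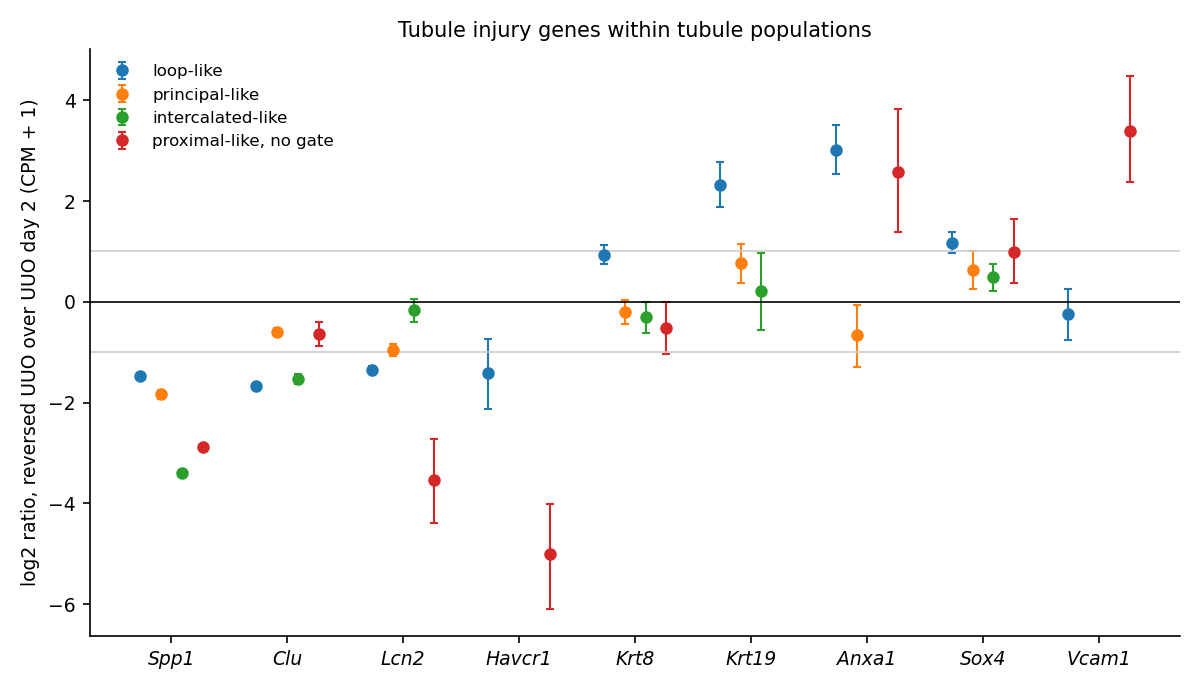
Log2 ratio of CPM plus 1, reversed over day 2, of 9 tubule injury genes in 4 tubule classes, with exact 95% counting intervals and only where both libraries together held at least 30 UMIs. Spp1 is lower in all 4 classes, Havcr1 lowest in the proximal-like cells (-5.01), and Vcam1 higher in those cells (3.38) but not in loop-like cells (-0.24).

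Fibrinogen genes of the acute phase list had higher levels in the proximal-like cells in no gate than in the epithelial gate. In those cells 3027 genes were above the minimum, 8.49% of them higher and 3.01% lower, and of 6 acute phase genes 5 were lower (median -3.40). Fibrinogen is a clotting protein that injured tubules also make. Of its chains, Fgg went from 713 to 41.5 CPM (-4.07, -4.49 to -3.67), Fgb from 179 to 10.2 (-4.01) and Fga from 276 to 19.6 (-3.75). In the epithelial gate Fgg was at 1.99 CPM in sham, 63.6 at day 2, 62.1 at day 7 and 13.03 after reversal (-2.20). C3, the central complement component, went the other way in the gate, at 15.9, 56.7, 158 and 134 CPM (1.23, 0.99 to 1.47). It stayed 2-fold higher in only 10 of 16 alternatives. C3 was at 0.42 when ungated cells with tubule markers were added and at 0.94 with at most 10% mitochondrial UMIs.

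Proximal transporters were 20 of 20 above the minimum in the ungated proximal-like cells, 4 higher and 2 lower (median 0.55, against 0.06 for all genes there). Slc34a1, the main phosphate carrier, was at 1495 and 2207 CPM (0.56, 0.47 to 0.65). The endocytic receptor Lrp2 was at 454 and 652 CPM (0.52), and the glucose carrier Slc5a2 at 199.9 and 333 CPM (0.74). Slc13a1, a sulfate carrier, was lower, from 1692 to 371 CPM (-2.19, -2.34 to -2.04). Inside the epithelial gate 4 members were above the minimum and 3 were higher (Lrp2 1.94, Slc4a4 1.89, Slc34a1 1.57). None of these 3 reached 2-fold with equal weight of the tubule classes (Lrp2 0.59, Slc4a4 0.76, Slc34a1 0.15), where the list median was 0.37 in place of 1.73, and cells with most UMIs in proximal markers were 27 of 357 and 66 of 341 in the gate. The 10 proximal markers summed to 325 CPM at day 2 and 922 after reversal in the epithelial gate, to 319 and 706 in the endothelial gate, and to 254 and 757 in leukocytes, none of them at 0. Proximal transcripts were thus higher after reversal in cells of every gate, and the part of this in the values of the epithelial gate was not tested.

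In the loop and distal segments Egf, a growth factor made by the distal tubule and lost in injury, was at 632 CPM in sham, 79.9 at day 2, 72.7 at day 7 and 246 after reversal (1.61, 1.42 to 1.80). In loop-like cells it went from 177 to 722 CPM (2.02). In the gate it was below 2-fold with stricter gates (0.48) and with at most 10% mitochondrial UMIs (0.80). Egf UMIs were also more frequent outside the epithelium, at 18.1 and 107 CPM in the endothelial gate, where 1 reversed cell held 50%, and at 13.9 and 39.8 CPM in leukocytes. Slc12a1, the salt carrier blocked by loop diuretics, was at 767, 433, 400.1 and 633 CPM in the gate (0.55), and in loop-like cells at 999.7 and 1953 CPM (0.97, 0.87 to 1.06). Umod, which encodes uromodulin, was at 1256, 3455, 2610 and 2284 CPM in the gate (-0.60), and at 7199 and 6475 CPM in loop-like cells (-0.15). In the gate Egf, Slc12a1 and Umod were thus each nearer to sham after reversal than at day 2. Loop-like cells were 28 of 92 cells of the gate in sham, 154 of 357 at day 2 and 128 of 341 after reversal. Egf and Slc12a1 stayed below sham after reversal, and Umod was above sham in all 3 other libraries. Of 11 members above the minimum, 2 were higher and 1 lower, and their median of 0.36 (0.15 over all 16) turned to -0.05 with equal weight of the classes and to -0.01 in thinned cells.

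Among collecting duct genes, summed over the gate, Aqp2 was lower after reversal than in sham, whereas Aqp6 was near its sham level. The class mix of the gate also differed from sham, and its part in these comparisons was not tested. Of 12 members above the minimum 1 was lower and none higher, with a median of -0.53. Aqp2, the vasopressin-regulated water channel, was at 3198 CPM in sham, 828.5 at day 2, 239 at day 7 and 425 after reversal (-0.96, -1.05 to -0.87). Within principal-like cells it was at 5525 and 4331 CPM (-0.35, -0.45 to -0.26), while these cells went from 46 of 357 to 31 of 341. In sham they were 16 of 92. Aqp6, a channel of intercalated cells, was at 65.6, 153, 115.6 and 62.6 CPM in the gate (-1.27, -1.51 to -1.04), and it was at -0.58 with at most 10% mitochondrial UMIs. Intercalated-like cells went from 90 of 357 to 60 of 341, and were 7 of 92 in sham. Within them 1 of 12 collecting duct members was higher and none lower (median 0.24), beside 5.34% and 1.79% of all genes there. The list median of the gate was -0.10 at its weakest among the alternatives. Guca2a, which encodes the salt-regulating peptide guanylin, was lower in the gate (277 to 58.8 CPM, -2.22) and in intercalated-like cells (967 to 248, -1.96).

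Genes of energy metabolism were mostly within 2-fold. None of 13 fatty acid oxidation genes above the minimum was 2-fold different in the gate, with a median of 0.10 that became -0.24 at its lowest among the alternatives. None of 15 differed 2-fold in the ungated proximal-like cells either (median 0.19). For glycolysis 11 of 12 members lay below their day 2 level, beside 1395 of all 3374 genes in the gate. Only Slc2a1, the glucose transporter GLUT1, was 2-fold lower (82.9 to 37.2 CPM, -1.13). It too was below 2-fold in 3 of 16 alternatives, at -0.72 in thinned cells. Gapdh was at 1156 and 738 CPM (-0.65) and Pkm at 486 and 306 CPM (-0.66). Glycolysis genes also lay below day 2 in 10 of 10 endothelial members (1985 of all 3936 genes) and 8 of 10 leukocyte members (1811 of 3108). The list median was -0.31 in the epithelial gate, -0.50 in the endothelial gate and -0.61 in leukocytes, so the lower levels were not particular to the epithelium.

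Immediate early genes, which also respond to cell preparation, were higher after reversal in 7 of 19 epithelial members. Fos was at 1067 CPM in sham, 289 at day 2, 358 at day 7 and 645 after reversal (1.16), and Jun at 596, 291, 473 and 670 (1.201). Both were below 2-fold with at most 10% mitochondrial UMIs (0.73 and 0.87) and with TMM factors (0.88 and 0.92). For these genes the reversed library was closer to sham than day 2 was. Heat shock genes of the same list did not follow: Hspa1a was at 152 and 139 CPM (-0.14) and Hspa8 at 1006 and 991 (-0.02). Members were also higher in the other gates, 4 of 18 in endothelial cells (4.5% of all genes there) and 3 of 21 in leukocytes (6.72%), with none lower in either (2.29% and 3.35% of all genes). Fosb, a partner of Jun, went from 33.9 to 110.0 CPM in the epithelial gate (1.67), from 11.3 to 121.6 in the endothelial gate (3.31) and from 12.8 to 87.4 in leukocytes (2.68). The part of these genes' response to preparation in the results of the 3 gates was not tested.

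Some of the largest ratios of the epithelial gate were in genes with many of their UMIs in few cells. Ccl20, which attracts lymphocytes and dendritic cells, was at 0 UMIs in sham, 97.3 CPM at day 2, 37.6 at day 7 and 13.03 after reversal (-2.81), but 2 of 357 day 2 cells held 50% of its 364 UMIs, and its direction turned with at most 10% mitochondrial UMIs (1.72). Ren1, the renin gene, was at 97.8 and 0.636 CPM (366 and 2 UMIs, -5.92, -6.53 to -4.89), with 96.4% of the day 2 UMIs in 1 cell. Its log2 ratio was -1.76 without the top cell of each library. At the other end, Igfbp2 had 0 and 178 UMIs, 139 of them in 1 reversed cell. Against 3 UMIs it was at least 70.6-fold higher. Col1a1 and Col1a2, the chains of type I collagen, were at 0.535 (2 UMIs) and 73.4 CPM (5.60, 4.64 to 6.14) and at 2.67 and 68.6 CPM (4.25), and 1 reversed cell held 64.1% and 60.2% of their UMIs. Of 14 matrix genes above the minimum in this gate 9 were higher, and the fibroblast and mural marker sum was 86.9 CPM at day 2, with 2 of 10 markers at 0, and 409 after reversal. The endothelial marker sum of the gate was 123 and 474 CPM, which accompanied higher Kdr (8.29 to 70.6 CPM, 2.95), the VEGF receptor, and Ehd3 (12.6 to 102 CPM, 2.93). Kdr was below 2-fold without cells passing more than 1 gate (0.57). How much these cells contribute was not tested. Leaving out gated cells led by such markers (11 of 357 and 36 of 341) gave a median of 0.85 for the matrix list in place of 1.14.

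The endothelial cells of the reversed library had higher levels of Aplnr and of some interferon-stimulated genes, and their capillary identity genes were mostly within 2-fold. Of 3936 genes above the minimum 4.5% were higher and 2.29% lower, with a median of 0.00. Of 23 interferon genes 19 were above the minimum, 6 of them higher and none lower, with a median of 0.80. Type I interferon acts through a DNA element in the promoters of many of these genes.

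Rsad2, which encodes the antiviral enzyme viperin, was at 660 CPM in sham, 192 at day 2, 483 at day 7 and 726 after reversal (1.91, 1.68 to 2.15). Its UMIs were spread over 61 of 151 and 239 of 338 cells. Ifit3, an antiviral RNA-sensing partner, was at 130.5, 58.9, 185 and 180.1 CPM in the same order (1.597, 1.18 to 2.04). Ifit1, which binds foreign RNA, was at 99.8, 50.9, 134 and 141 CPM (1.45, 0.99 to 1.93). Day 2 had the lowest level of these 3 genes among the 4 libraries. Isg15, a ubiquitin-like modifier, was at 134 and 135 CPM in sham and day 2, and at 332 and 284 CPM at day 7 and after reversal (1.07). It was below 2-fold in 5 of 14 alternatives, at 0.72 in thinned cells. The GTPase Iigp1 was at 140.1, 101, 261 and 235.5 CPM (1.22).

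The stretch before the start of 3 of these genes is shown because they belong to the interferon list and interferon factors are known to bind such promoters. The core of the known element, TTTC, any 2 bases and TTTC again, was searched on both strands and is in capitals. Overlapping matches merge into 1 run. The 250 bases upstream of the RefSeq start are given 5′ to 3′ on the gene's strand (GRCm38.p6), for Rsad2 at chr12:26456453-26456702, minus strand, for Ifit1 at chr19:34640639-34640888, plus strand, and for Isg15 at chr4:156200819-156201068, minus strand.
Rsad2: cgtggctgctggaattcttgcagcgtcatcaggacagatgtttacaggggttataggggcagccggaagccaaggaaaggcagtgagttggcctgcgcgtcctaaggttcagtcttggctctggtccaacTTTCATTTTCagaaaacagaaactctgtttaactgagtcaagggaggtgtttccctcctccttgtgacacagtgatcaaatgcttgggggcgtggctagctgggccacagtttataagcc
Ifit1: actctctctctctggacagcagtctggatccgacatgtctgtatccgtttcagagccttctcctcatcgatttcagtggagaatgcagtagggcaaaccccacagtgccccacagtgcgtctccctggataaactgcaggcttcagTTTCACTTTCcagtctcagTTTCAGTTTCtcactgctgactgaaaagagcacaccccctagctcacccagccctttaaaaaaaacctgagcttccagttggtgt
Isg15: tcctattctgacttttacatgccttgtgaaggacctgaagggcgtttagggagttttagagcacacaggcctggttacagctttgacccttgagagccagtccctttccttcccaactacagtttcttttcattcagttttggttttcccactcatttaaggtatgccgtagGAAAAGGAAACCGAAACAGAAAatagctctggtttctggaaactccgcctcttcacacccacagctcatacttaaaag
Rsad2 had 1 match, Ifit1 2 and Isg15 3. Of 27025 such RefSeq promoters 3.04% held the core, and of the 18 list members matched by symbol 9 did. A match describes these letters and does not show a bound site.

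Within endothelial classes, Rsad2 was higher in capillary-like cells (337 to 1070 CPM, 1.66, 1.38 to 1.96) and in glomerular-like cells (65.7 to 181 CPM, 1.45, 0.65 to 2.34). Among capillary-like cells, where 4.66% of 3990 genes were higher, 3 of 19 interferon members were. Among glomerular-like cells, where 8.48% of 3881 were higher, 11 of 14 were. Among arterial-like cells, where 6.84% of 2602 were higher, 0 of 12 were, with no test behind that count. The share of capillary-like cells differed between the libraries (40.4% and 65.4%).

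Of 16 angiogenic and basement membrane genes 11 were above the minimum, 4 higher and 1 lower (median 0.81, and 0.50 over all 16). Glomerular-like cells also had more higher than lower members, and capillary-like and arterial-like cells had more lower ones. No difference between these classes was tested. In capillary-like cells 1 of 13 was higher and 4 were lower (Angpt2, Apln, Mcam and Vim, median 0.26), beside 4.66% and 4.06% of all genes there. In arterial-like cells none of 8 was higher and 2 were lower (median -0.50, with 5.15% of all genes lower), and in glomerular-like cells 3 of 8 were higher and none lower (median 0.74, with 3.84% of all genes lower). Aplnr, the apelin receptor of sprouting and venous endothelium, was at 28.8 CPM in sham, 29.4 at day 2, 174 at day 7 and 229 after reversal (2.92, 2.36 to 3.52). It was detected in 13 of 151 and 120 of 338 cells. Esm1, a tip cell proteoglycan, was at 447, 194, 426 and 413 CPM (1.09), but at 440.3 and 505 CPM in capillary-like cells (0.20, -0.07 to 0.47). Col4a1, a chain of basement membrane collagen, was at 244, 302, 756 and 623 CPM (1.04), and was below 2-fold in 6 of 14 alternatives, at 0.58 in thinned cells. Its partner chain Col4a2 was at 259 and 380.0 CPM (0.55). Vim, the intermediate filament vimentin, was lower, at 437.5, 1512, 709 and 448.5 CPM (-1.75, -1.88 to -1.63), and in capillary-like cells at 1168 and 367 CPM (-1.67).

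Adhesion genes were 1 of 10 higher and none lower. This was Vcam1, which binds leukocytes, at 36.5 CPM in sham, 124.5 at day 2, 149.9 at day 7 and 257 after reversal (1.04, 0.74 to 1.35), and below 2-fold in 8 of 14 alternatives, at 0.65 without cells led by other markers. Pecam1 was at 581 and 717 CPM (0.30) and Cdh5, the endothelial cadherin, at 440.4 and 481 CPM (0.13). All 20 capillary identity genes were above the minimum and 19 were within 2-fold. The exception was Aqp1, a water channel of the descending vasa recta and the proximal tubule, at 497, 1060, 199 and 229 CPM (-2.21, -2.38 to -2.04), with 5 cells of each library holding 50% of its UMIs. Kdr and Flt1, the VEGF receptors, were at 464 and 780 CPM (0.75) and at 550.2 and 901 CPM (0.71).

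Some of the largest endothelial differences were in genes with most UMIs in few cells or in markers of other cell types. The podocyte gene Nphs1 was at 77.0 and 1.64 CPM (-4.88, -5.91 to -3.68, 3 reversed UMIs), from 7 of 151 day 2 cells. Col1a1 had 0 and 162 UMIs, of which 91.4% lay in 1 reversed cell. The haemoglobin gene Hbb-bs was at 21.5 and 1552 CPM (6.11), with 94.7% of the reversed UMIs in 1 cell, and its log2 ratio was 2.62 without the top cells. MHC class II genes were higher in this gate, H2-Eb1 from 61.1 to 362.5 CPM (2.55) and H2-Aa from 70.2 to 382 (2.43). They were also higher in the epithelial gate (H2-Eb1 101 to 326 CPM) and in leukocytes (2584 to 7027 CPM), and the phagocyte marker sum of the endothelial gate was 480.0 and 791 CPM. The part of leukocyte RNA in these values was not tested.

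The leukocytes of the reversed library had lower levels of monocyte genes and proliferation genes, and higher levels of Apoe and Ms4a7, of several MHC class II genes and of T cell genes. Of 3108 genes above the minimum 6.72% were higher and 3.35% lower, with a median of -0.12. Among phagocyte-like cells 6.23% of 3051 genes were higher and 3.97% lower, and among T or NK-like cells 10.2% and 2.3% of 3211.

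Of 10 monocyte recruitment genes above the minimum 7 were lower, none higher, with a median of -1.26. Chil3, a chitinase-like protein of recruited monocytes, was at 38.3 CPM in sham, 550 at day 2, 62.5 at day 7 and 57.3 after reversal (-3.24, -3.39 to -3.10). It was detected in 252 of 696 and 48 of 1001 cells, and in phagocyte-like cells alone it went from 615 to 68.0 CPM (-3.16). F13a1, a clotting factor chain of monocytes, was at 55.8, 95.3, 45.9 and 23.4 CPM (-1.98). Cebpb, a transcription factor of myeloid inflammation, was at 265, 976, 354 and 394 CPM (-1.31), and Plac8 at 843, 769, 648 and 363 CPM (-1.08). Chil3 and Cebpb thus stood out at day 2, whereas Plac8 was lower after reversal than in any other library. Ly6c2, the marker of inflammatory monocytes, was at 145 and 103 CPM (-0.50), and Ccr2, the receptor that draws them in, at 554.5 and 469 CPM (-0.24).

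Inflammatory mediators were 3 of 11 lower and none higher, with a median of -0.48, but 0.02 over all 20 measured members. Ccl2, the ligand of Ccr2, was at 112 CPM in sham, 510.1 at day 2, 196 at day 7 and 125 after reversal (-2.02, -2.13 to -1.91). Ccl7, a related chemokine, was at 0 UMIs in sham, and at 257, 183 and 110.1 CPM after that (-1.22). Clec4e, a receptor for dead cells, was at 66.7 and 26.1 CPM (-1.32). Il1b, the cytokine interleukin 1 beta, was not lower, at 393 and 509 CPM (0.37, 0.30 to 0.44), nor was Nfkbia at 479 and 556 CPM (0.21).

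Genes linked to alternative activation and repair split. Of 14 above the minimum 7 were higher and 2 lower, with a median of 0.83. Among the lower was the eosinophil-attracting chemokine Ccl24 (67.0 to 3.06 CPM, -4.07), of which 2 day 2 cells held 50%. Higher was Retnla, a secreted protein induced by interleukin 4, with 0 UMIs in sham, 1.42 CPM at day 2, 63.9 at day 7 and 171 after reversal (6.16, 5.57 to 6.69), from 9 and 96 cells, 3 of which held 50% in the reversed library. Mmp12, the macrophage elastase, was at 59.2, 78.0, 149.8 and 294 CPM (1.90) and Fabp5, a fatty acid carrier, at 20.9, 74.5, 133 and 199 CPM (1.41). Both were highest after reversal among the 4 libraries. Igf1, the growth factor, was at 11.9 and 62.1 CPM (2.29), Mrc1, the mannose receptor, at 69.7 and 140.4 CPM (1.00), and Trem2, a lipid receptor, at 136 and 118 CPM (-0.20). Mrc1 was below 2-fold in 5 of 15 alternatives, at 0.77 with DESeq2 factors.

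Macrophage residence and complement genes were 4 of 14 higher and none lower, with a median of 0.51, and no complement component was among the 4. Apoe, the lipid carrier, was at 2795 CPM in sham, 2803 at day 2, 10458 at day 7 and 9298 after reversal (1.73, 1.71 to 1.75). Ms4a7 was at 164, 133.5, 456 and 497 CPM (1.89), and Ccl8, a monocyte chemokine, at 0 UMIs in sham and then at 12.2, 257.5 and 168 CPM (3.68), with 64.0% of the day 2 UMIs of Ccl8 in 1 cell. For these 3 the reversed library resembled day 7 in level more than day 2. Apoe was also higher in T or NK-like cells (133 to 805 CPM) and loop-like cells (152 to 780), at levels far below those of phagocyte-like cells (3127 to 11030 CPM). C1qa, of the first complement component, was at 1411, 1336, 2991 and 2148 CPM (0.68), Cx3cr1 at 249 and 308 CPM (0.31) and Adgre1, which encodes F4/80, at 136 and 177 CPM (0.38).

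Antigen presentation genes were 4 of 13 higher, none lower, with a median of 0.65. H2-Eb1, an MHC class II chain, was at 8549 CPM in sham, 2584 at day 2, 8519 at day 7 and 7027 after reversal (1.44, 1.42 to 1.47). H2-Aa was at 10887, 3686, 9726 and 7735 CPM (1.07), and Cd74, the invariant chain, at 36170, 13436, 28249 and 23352 CPM (0.80). H2-Aa was below 2-fold with TMM factors (0.84). The day 2 library had the lowest level of each. Phagocyte-like cells alone gave H2-Eb1 at 2828 and 8294 CPM (1.55).

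Of 13 cell cycle genes 6 were lower and none higher, with a median of -0.94. Each of the 6 (Birc5, Cdk1, Mcm5, Rrm2, Stmn1 and Ube2c) stayed 2-fold lower in only 14 of 15 alternatives. Their weakest values ran from -0.13 (Ube2c) to -0.84 (Stmn1), and the list median was -0.61 at its weakest. Stmn1, a tubulin regulator of dividing cells, was at 381 and 131 CPM (-1.54), and at -0.84 with equal weight of the classes, and Top2a, the topoisomerase of S and G2 phase, at 108 and 61.9 CPM (-0.79). Phagocyte-like and T or NK-like cells differed here. In phagocyte-like cells 9 of 14 members were lower, Top2a going from 116 to 50.6 CPM (-1.19, -1.38 to -0.99). In T or NK-like cells 5 of 11 were higher, Top2a going from 61.4 to 148 CPM (1.26, 0.69 to 1.86) and Mki67 from 22.5 to 84.8 CPM (1.87, 0.98 to 2.87). The Top2a intervals of the 2 classes do not overlap, and the difference was not tested.

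Of 11 T and NK cell genes above the minimum 8 were higher and 1 lower, with a median of 1.33. Cd3g, a chain of the T cell receptor complex, was at 233.5 CPM in sham, 57.3 at day 2, 89.4 at day 7 and 215 after reversal (1.89, 1.73 to 2.05). Cxcr6, of tissue-resident T cells, was at 132, 23.7, 40.6 and 90.5 CPM (1.89). Inside the T or NK-like cells the ratios were smaller, 783 to 1506 CPM for Cd3g (0.94) and 329 to 623 CPM for Cxcr6 (0.92), while the class itself went from 15.8% to 25.2% of leukocytes. Cd3g is among the markers that define the class, as are Gzma, Ncr1 and Klrb1c below. Gzma, a granzyme of NK cells, was lower in all leukocytes (150.5 to 20.6 CPM, -2.81) and in the class (2105 to 142 CPM, -3.88, -4.15 to -3.63). Other genes of NK cells were also lower in the class: the receptor Ncr1 went from 229 to 48.6 CPM (-2.21), Klrb1c, which encodes NK1.1, from 247.5 to 50.7 (-2.27), and Gzmb from 571 to 173 (-1.72). Of the 19 T and NK cell genes above the minimum in the class, 1 was at least 2-fold higher and 5 lower (median 0.34), beside 10.2% and 2.3% of all genes. With equal weight of phagocyte-like and T or NK-like cells and no others, the list median of the leukocyte gate was 0.47 in place of 1.33. Cd3g and Cxcr6 were then below 2-fold (0.95 and 0.93). None of the 8 higher calls was kept in every alternative. Cd8b1 stayed 2-fold in 12 of 15, and Cd3d, Cd3g, Cxcr6, Trac, Trbc1, Trbc2 and Xcl1 in 14 of 15.

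Interferon genes were 2 of 15 higher among all leukocytes, with a median of 0.63. In T or NK-like cells 11 of 15 were higher (median 1.30): Ifit1 had 4 and 96 UMIs (8.18 to 99.3 CPM, 3.45, 2.14 to 4.99) and Isg15 32 and 176 UMIs (65.5 to 182 CPM, 1.46). In the epithelial gate 3 of 5 were higher and Ifit3 was lower (172 to 76.6 CPM, -1.15, -1.37 to -0.94). Of its 76.6 CPM after reversal, 2 cells held 50%. In loop-like cells Ifit3 was at 255 and 69.0 CPM (-1.87) and Isg15 at 20.8 and 83.0 CPM (1.95).

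Antibody genes were higher, with most reversed UMIs of each in 1 cell. Jchain was at 0.426 (3 UMIs) and 276 CPM (7.60, 6.95 to 8.00), Igha at 2.70 and 273 (6.21) and Igkc at 64.7 and 2226 (5.08), and single reversed cells held 56.7%, 96.0% and 61.7% of their UMIs. Without the top cell of each library the log2 ratios of Jchain, Igha and Igkc were 6.56, 1.82 and 3.90. The smooth muscle genes Tagln and Acta2 were at 4.68 and 110.0 CPM (4.29) and at 11.1 and 116 CPM (3.27), with 3 and 4 reversed cells holding 50%. Acta2 was at 0.69 without cells led by markers of other cell types. The fibroblast and mural marker sum of the leukocytes was 68.1 CPM at day 2 and 328 after reversal, and its part in these values was not tested. Neutrophil genes were lower: S100a8 was at 593.5 and 247 CPM (-1.26) and Retnlg at 109.5 and 10.4 (-3.27), and the 8 neutrophil markers summed to 1182 and 481 CPM.

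**Figure D3:**
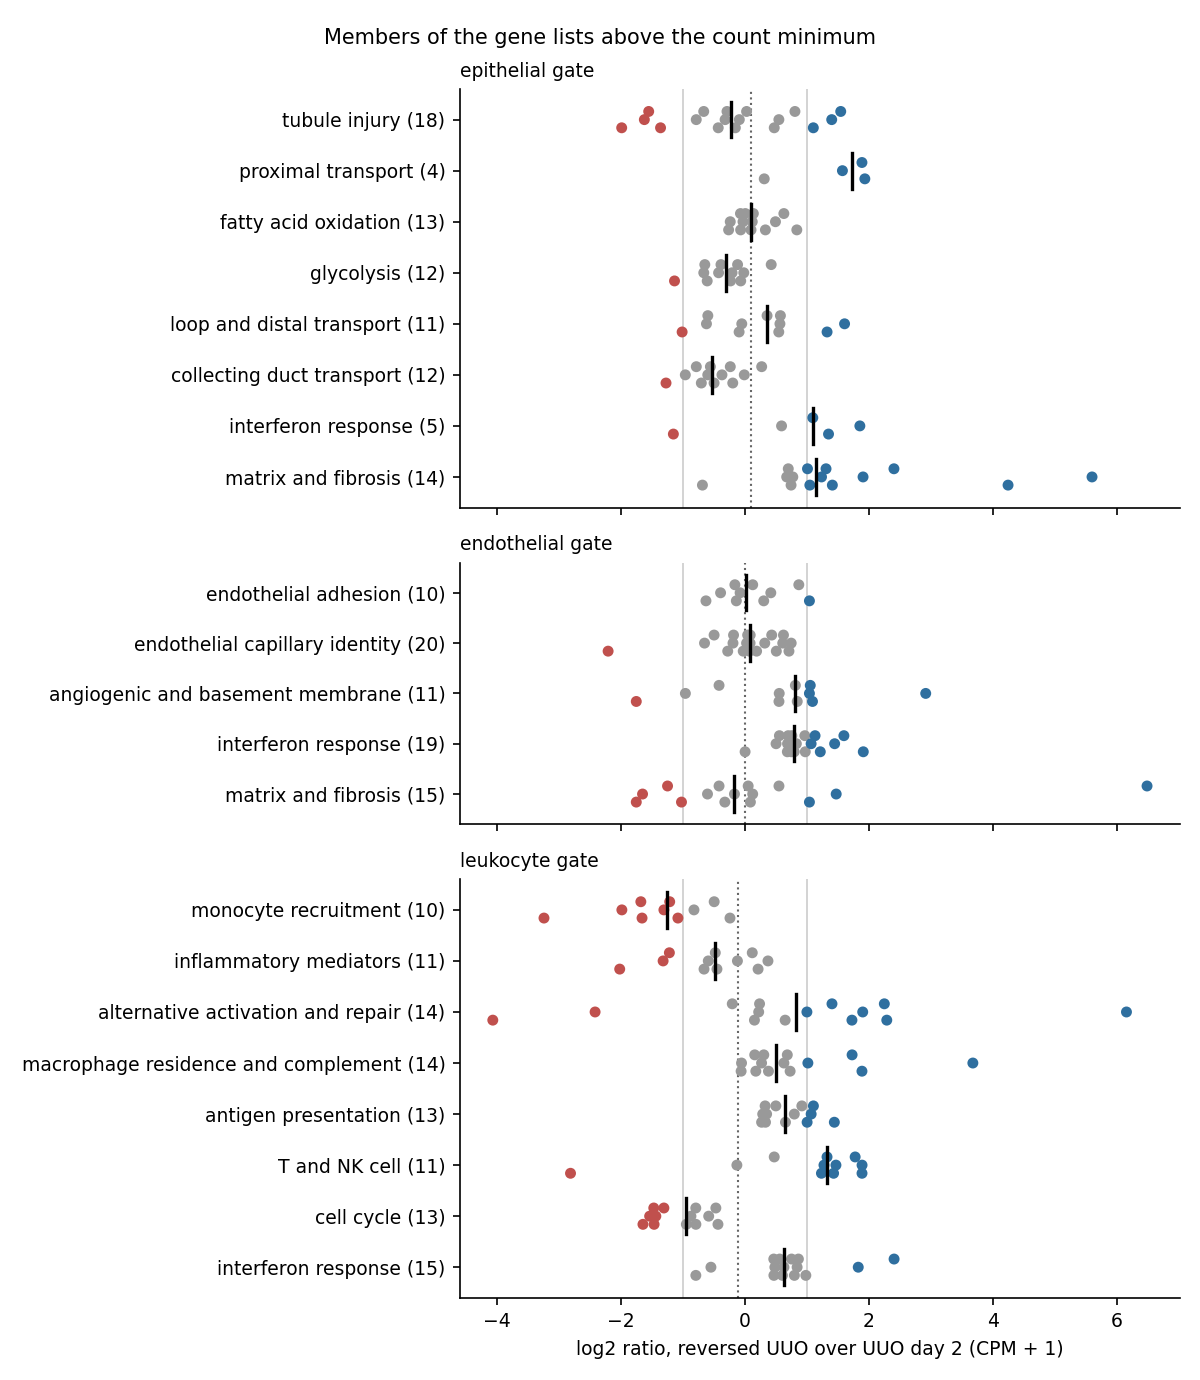
Log2 ratio of CPM plus 1, reversed over day 2, of each list gene above the count minimum (1 point per gene, number per list in brackets) in the 3 gates. Blue points are at least 2-fold higher, red at least 2-fold lower, black bars are list medians and the dotted line is the median of all genes above the minimum. Monocyte recruitment (-1.26) and cell cycle (-0.94) lie to the left in leukocytes and the interferon list to the right in endothelial cells (0.80).

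**Figure D4:**
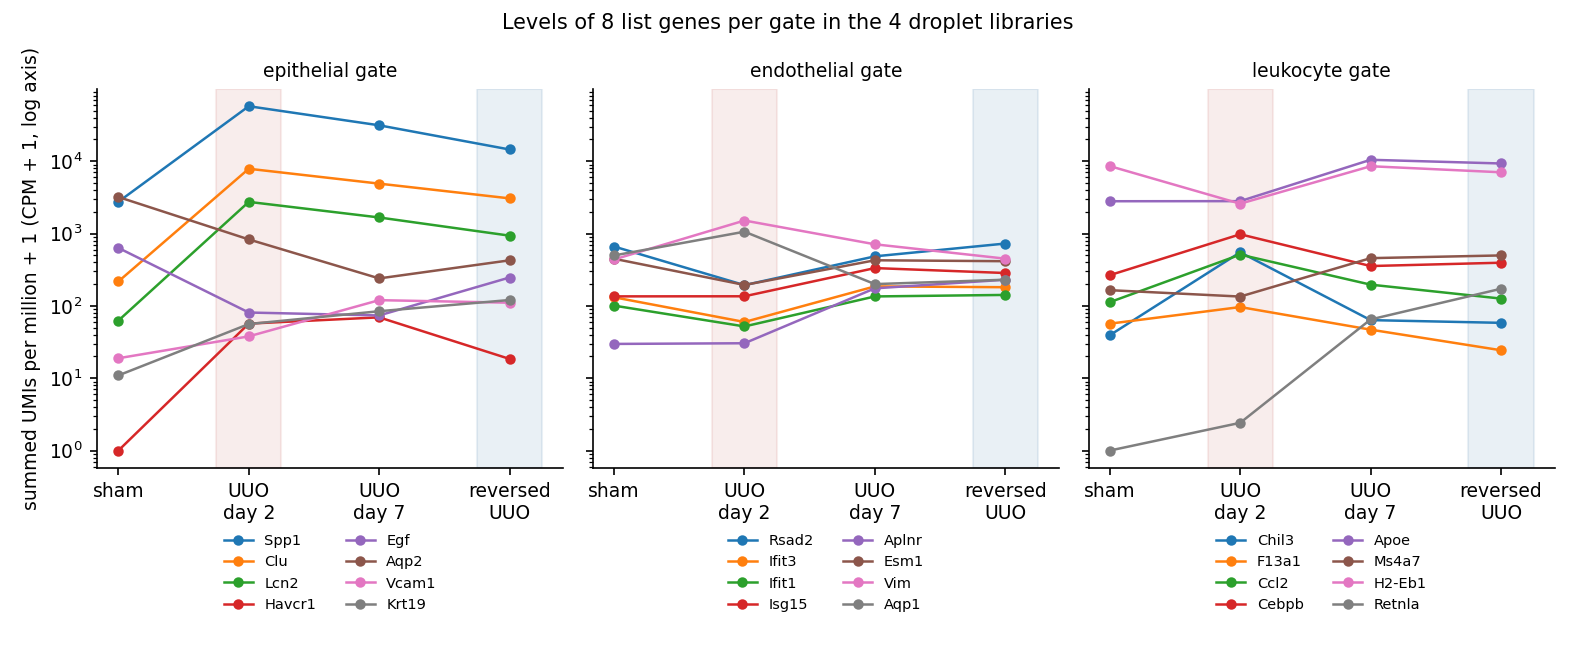
CPM plus 1 on a log axis of 8 list genes per gate in the sham, day 2, day 7 and reversed libraries, 1 library each, with day 2 and reversed shaded. Spp1, Clu and Lcn2 are highest at day 2 in the epithelial gate, Rsad2, Ifit3 and Ifit1 lowest at day 2 in the endothelial gate, and Chil3, F13a1, Ccl2 and Cebpb highest at day 2 in leukocytes.

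Across all kept cells, 7.03% of 3329 genes were higher and 2.13% lower after reversal, 234 and 71 genes. This split depends on the scaling. With TMM factors, which lower every log2 ratio by 0.22 in all cells, 0.28 in the epithelial gate, 0.05 in the endothelial gate and 0.23 in leukocytes, the counts in all cells were 124 and 138. In the epithelial gate they were 97 and 89 in place of 221 and 47, and in leukocytes 130 and 186 in place of 209 and 104. Of 200 results for named genes in a gate that were at least 2-fold, 23 were below 2-fold with TMM factors, among them Mrc1 and H2-Aa in leukocytes, Vcam1 and Col4a1 in the endothelial gate, and Krt19, C3, Fos and Jun in the epithelial gate.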

How the data were processed

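Single-cell libraries were made with 10x 3' V2 chemistry, per the labels' protocols, and the deposited matrices hold raw UMI counts per gene and cell that the authors made with Cell Ranger and STAR on GRCm38 (mm10), per the submitters' processing notes; versions and a filter on cells are not given in the sources used here. The files list 28692 gene IDs.

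From these counts, cells were filtered, gated and summed per library with Python 3.11.15, numpy 2.4.6 and pandas 2.3.3. A pseudocount of 1 CPM was added before log2. Intervals are exact, Clopper-Pearson for shares and conditional binomial for ratios (scipy 1.17.1), and cover counting error only. With 0 UMIs in a library a fold was taken against 3 UMIs. Named genes were the members of the gene lists and the 10 genes with the largest ratios each way per gate. Members and lists were chosen with earlier results of these data known. Doublets were kept in the values given. As an alternative, the cells with the highest Scrublet scores (scanpy 1.11.5) were left out. Their number was set beforehand from the count of deposited cells, at 60 and 109, and is not a number of doublets found. Of these, 34 were among the 1515 and 63 among the 2072 kept cells. The day 2 and reversed libraries shared 16 barcodes as deposited. Scaling alternatives used edgeR 4.0.16 and DESeq2 1.42.0 under R 4.3.3, for factors only. Equal weight of classes averaged only classes with at least 20 cells in both libraries and left out all other cells. In the epithelial gate these were the proximal (27 and 66 cells), loop, principal and intercalated classes. In leukocytes they were the phagocyte and T or NK classes. The summing and calling were tested on simulated data. Promoters came from RefSeq on GRCm38.p6. The plate-based Smartseq2 sample of the series was not used here. Results for some list members are not reported here.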

Additional observations from a re-analysis of the deposited data

Results flagged for a closer look

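Some genes were at least 2-fold higher after reversal in one gate and at least 2-fold lower in another, and none of these differences between gates was tested. Vim, an intermediate filament gene, had a log2 ratio of 1.05 in the epithelial gate and -1.75 in the endothelial gate, but the epithelial value was at least 2-fold in only 8 of 16 alternatives and turned to -0.44 in thinned cells. Acta2, of smooth muscle and myofibroblasts, had 1.24 in the epithelial gate, -1.25 in the endothelial gate and 3.27 in leukocytes. These 3 calls were not kept throughout: Acta2 was at 0.52 in the epithelial gate with at most 10% mitochondrial UMIs, and at -0.06 in the endothelial gate and 0.69 in leukocytes without cells led by markers of other cell types. Ifit3, an interferon-stimulated gene, had -1.15 in the epithelial gate and 1.597 in the endothelial gate. Fn1, which encodes fibronectin, had 2.40 in the epithelial gate and -1.21 in leukocytes. The summed fibroblast and mural markers were at 86.9 and 409 CPM in the epithelial gate, 585 and 399.7 CPM in the endothelial gate, and 68.1 and 328 CPM in leukocytes, and their part in these ratios was not tested.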

How the results depend on the processing

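No paired analysis was possible because each time point has 1 library. Of 200 named gene results that were at least 2-fold different, 126 stayed so in every alternative run for them and 4 turned sign in at least 1. Those were Ccl20 in the epithelial gate (1.72 with at most 10% mitochondrial UMIs), Vim in the epithelial gate and Atf3 in the endothelial gate (-0.44 and -0.63 in thinned cells), and Col1a2 in the endothelial gate (-2.07 without cells passing more than 1 gate, -1.98 with stricter gates, -1.69 without the top cells, -0.83 without cells led by other markers). The cause was not tested. Of 29 list medians, 24 kept their sign in all alternatives. The others were cell cycle, fatty acid oxidation and loop and distal transport in the epithelial gate, and adhesion and capillary identity in the endothelial gate.

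Gate shares (day 2, reversed) moved with the filters. With at most 10% mitochondrial UMIs the epithelial share was 14.1% and 12.7%, the endothelial 12.5% and 19.2%, the leukocyte 58.3% and 54.2%. With at most 50% the endothelial share was 7.16% and 11.001%, the leukocyte 33.5% and 33.9%. Stricter gates gave epithelial 19.4% and 12.3%, reversed endothelial 13.8%, and leukocyte 34.4% and 37.5%. The alternative without cells passing more than 1 gate also left out leukocytes with at least 1 Epcam UMI or at least 2 Egfl7 UMIs. Its leukocyte shares were 37.4% and 39.7%, and its reversed epithelial and endothelial shares 14.6% and 14.5%. Of leukocytes, 112 at day 2 and 129 after reversal held an Epcam UMI, and 20 and 54 held at least 2 Egfl7 UMIs. Thinning gave epithelial 10.6% and 7.53%, endothelial 3.83% and 7.00%, leukocyte 14.6% and 21.5%.

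Counts of genes (higher, lower) depended on scaling and limits. All cells gave 124 and 138 with TMM, 123 and 143 with DESeq2 factors, 626 and 252 at 1.5-fold, and 1270 and 247 without the limit on low genes. Epithelial counts were 97 and 89, 102 and 81, 667 and 143, and 1893 and 267 in that order, with 147 higher at 50% mitochondrial UMIs and 89 lower in thinned cells. Leukocyte counts were 130 and 186, 129 and 188, 515 and 365, and 1619 and 330. Endothelial counts were 574 and 321 at 1.5-fold and 2113 and 1350 without the limit. Shallow gates limit low genes, the endothelial one at day 2 holding 883354 UMIs.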
